A study of Mus musculus with 4 samples.

Results

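NMDA receptors are ion channels opened by glutamate that admit calcium at excitatory synapses. Each channel combines the obligatory GluN1 subunit, encoded by Grin1, with GluN2 subunits (Grin2a to Grin2d), which bind glutamate, or with GluN3 subunits (Grin3a and Grin3b), which bind glycine. The subunit mixture changes as the brain matures and differs between brain regions, and ethanol is known to block these channels acutely. Of the 7 subunit genes, 6 were each named by 1 probe set of the platform annotation, out of 35556 probe sets on the array and 19946 genes that a probe set names alone. No probe set used here names Grin1, which was not analysed here, and no probe set names a subunit gene together with another gene.

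Adult male C57BL/6J brains were compared after ethanol or saline at an age that stands for late human gestation. Ethanol-exposed pups had been injected under the skin with 2 doses of 2.5 g/kg ethanol in saline, separated by 2 hours, at postnatal days 4 and 7, and control littermates had been given saline alone. In both groups the dam was kept out of the cage while pups were injected, and pups were weaned at day 25 and killed at day 60 by the labels, whereas the methods give an earlier weaning and a later collection. Each of the 4 Mouse Gene 1.0 ST arrays held whole-brain RNA pooled from 3 males of different litters, so an array is a pool and the variation between single mice cannot be seen. The arrays are called ethanol 2, ethanol 4, control 1 and control 3 after their titles. For ethanol 4 and control 1 the labels conflict: their treatment entry names the opposite injection to that in the title and source name. Group membership follows those 2 fields. Only ethanol 2 and control 3 carry labels without such a conflict.

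All signals are log2 values. The arrays are not on the same scale as deposited: the median signal of all probe sets was 6.33 and 6.38 on the ethanol arrays and 6.61 and 6.51 on the control arrays. Ethanol minus control had a median of -0.146, with 80.2% of all probe sets below 0 and 19.8% above. When the arrays were quantile normalized again, the median was -0.0042, with 51% below 0 and 49% above. Both forms are therefore given for each subunit. Neuronal markers were strong on every array, with a median of 12.19 to 12.44 over 7 genes. The pituitary transcripts Gh and Prl, at 6.53 and 5.05 on ethanol 2, were at 12.26 and 10.60 on ethanol 4, at 12.24 and 10.21 on control 1 and at 12.19 and 10.10 on control 3, so that ethanol 2 stands apart in these transcripts. Their part in the subunit results was not tested. Whole-brain RNA cannot tell fewer cells of a type from less RNA per cell. The study's limits, applied to each subunit, were a change of at least 1.2-fold (0.263 on the log2 scale) and an unadjusted p under 0.05, here from limma's moderated test (two-sided, n = 2 pools per group).

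In ethanol-exposed brains, 5 of the 6 measured subunits had lower signals than in control brains, both as deposited and after quantile normalization, and Grin3a was higher (with arrays centred on their medians Grin2a was higher too). As deposited, Grin2b, Grin2c, Grin2d and Grin3b passed these limits, all in the lower direction, that is 4 of 6 subunits, against 20.1% of all probe sets in either direction and 17.9% in the lower one. None of the 6 was past the limits and higher, against 2.23% of all probe sets. After quantile normalization 3 subunits passed, where 11.6% of all probe sets did: Grin2b and Grin2d were lower (5.87% of all probe sets) and Grin3a was higher (5.71%). With arrays centred on their medians, 2 subunits passed, Grin2d lower (-0.32) and Grin3a higher (0.39). Over the 6 subunits the median difference was -0.32 as deposited and -0.21 after normalization, beside -0.146 and -0.0042 over all probe sets. Grouped by the conflicting treatment entry instead, no subunit was past the limits, the median was 0.11, and every subunit that had passed them as deposited was higher except Grin2c (-0.07). No subunit passed an adjusted p of 0.05 in limma. The adjusted p of the 6 ran from 0.171 to 0.384 as deposited and from 0.302 to 0.675 after normalization, while 1 of all probe sets (0.00281%) passed as deposited and 2 (0.00562%) after normalization. An unadjusted p under 0.05 was reached by 4 subunits as deposited (22.2% of all probe sets) and by 3 after normalization (13.6%).

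**Figure D1:**
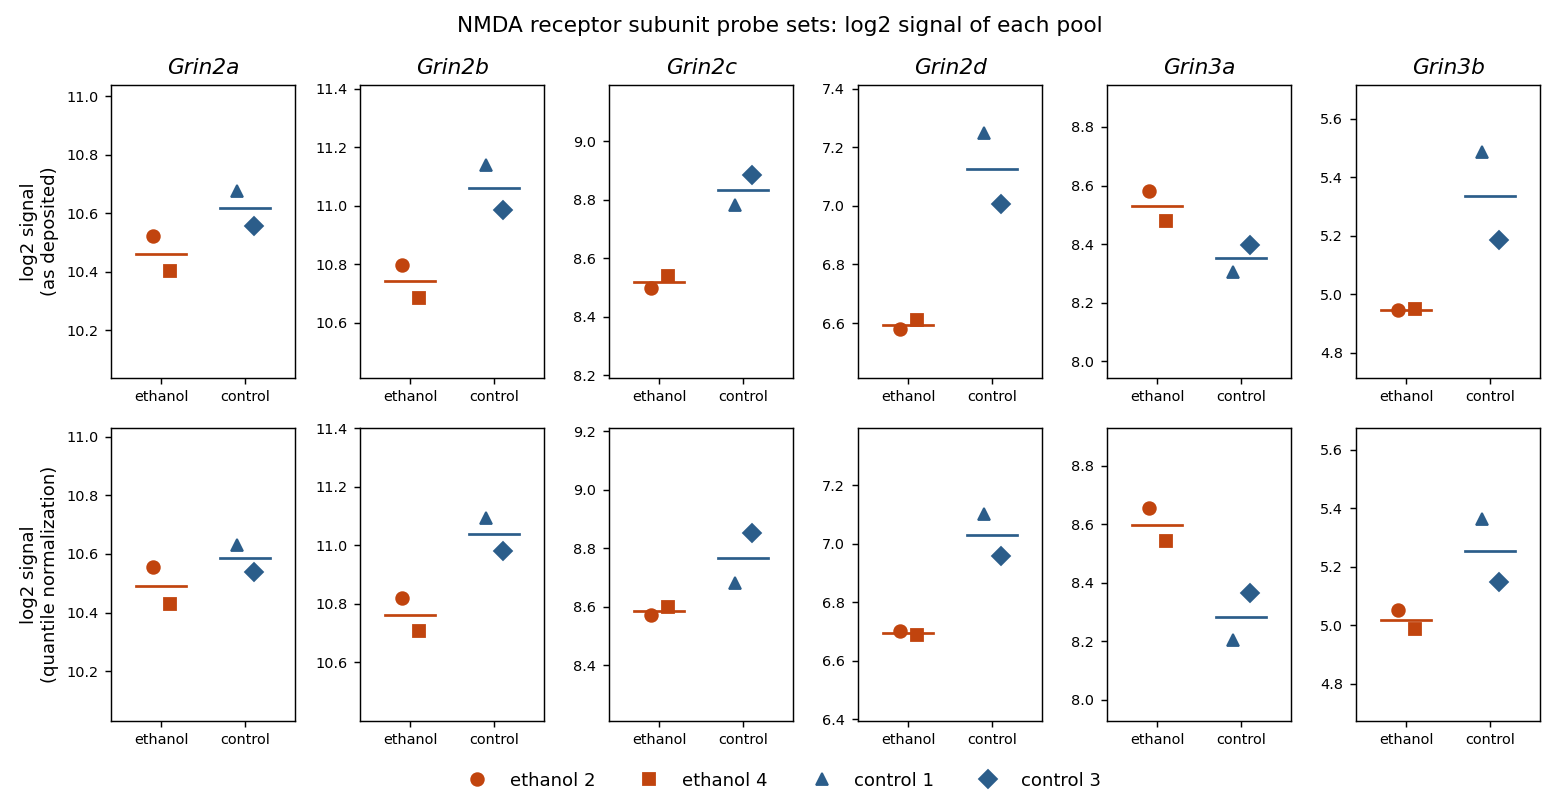
Log2 signal of each NMDA receptor subunit probe set on each pool, as deposited (top row) and after quantile normalization (bottom row), with ethanol left of control. Points are single arrays, horizontal lines are group means, and every panel spans the same range of log2 units. The ethanol pools lie below the control pools for Grin2b, Grin2c, Grin2d and Grin3b and above them for Grin3a in both rows, whereas Grin2a overlaps after normalization.

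Grin2a encodes GluN2A, the GluN2 subunit that gains weight at forebrain synapses as they mature. Its log2 signal was 10.52 on ethanol 2 and 10.40 on ethanol 4, against 10.68 on control 1 and 10.56 on control 3. The 2 groups were separated by only 0.03, less than the distance between the pools of either group (0.12 for ethanol and 0.12 for control). The difference was -0.15 (95% interval -0.42 to 0.11, adjusted p = 0.384). This lies at the median of all probe sets, as 48.0% of them had a lower value. After quantile normalization the groups overlapped, at 10.55 and 10.43 on the ethanol arrays and 10.63 and 10.54 on the control arrays, and the difference was -0.09 (95% interval -0.34 to 0.15). With arrays centred on their medians in place of quantile normalization, the difference of Grin2a was 0.06, so that its direction depends on the scaling.

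Grin2b encodes GluN2B, the GluN2 subunit of the immature forebrain, which remains in the adult forebrain and prolongs the channel's current. Its signal was 10.80 on ethanol 2 and 10.69 on ethanol 4, against 11.14 on control 1 and 10.98 on control 3. Both ethanol pools were below both control pools, by 0.19 at the nearest. The difference was -0.32 (standard error 0.10, adjusted p = 0.197), which is a signal 0.801-fold that of control brains. After quantile normalization the signals were 10.82 and 10.71 on the ethanol arrays and 11.09 and 10.98 on the control arrays, again without overlap. The difference was then -0.27 (standard error 0.09, adjusted p = 0.346). Among all probe sets with a mean signal of 10 to 11, the median difference was -0.11 as deposited and -0.04 after normalization. The call as deposited was lost without control 1 (-0.24), without ethanol 2 (-0.38) and without ethanol 4 (-0.26), and that after normalization was lost without any one array (-0.22 to -0.33). A fit with an array left out has 1 pool in a group and 1 residual degree of freedom. A call can therefore be lost with little change in the difference, here and for the genes below. Over ethanol 2 and control 3 alone Grin2b differed by -0.19.

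Grin2c and Grin2d encode GluN2C and GluN2D, whose channels are less sensitive to block by magnesium than those with GluN2A or GluN2B. GluN2C is known above all from granule cells of the adult cerebellum, and GluN2D from the early brain, the thalamus, the brainstem and interneurons. Both were lower on both ethanol arrays. Their start regions are shown because they are the GluN2 genes past the limits as deposited for which RefSeq (GRCm38.p6) start regions were given. They are the 250 bases before the start, on the strand of the gene, at chr11:115267244-115267493 (minus strand) for Grin2c and at chr7:45866682-45866931 (minus strand) for Grin2d. Capitals mark GGGCGG, the GC box that Sp1 factors are known to bind, searched on both strands.
Grin2c: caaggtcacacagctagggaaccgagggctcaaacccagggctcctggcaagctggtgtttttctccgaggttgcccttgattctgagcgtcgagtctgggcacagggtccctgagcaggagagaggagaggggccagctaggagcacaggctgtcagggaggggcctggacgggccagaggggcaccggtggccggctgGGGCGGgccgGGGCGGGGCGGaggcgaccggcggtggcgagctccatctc
Grin2d: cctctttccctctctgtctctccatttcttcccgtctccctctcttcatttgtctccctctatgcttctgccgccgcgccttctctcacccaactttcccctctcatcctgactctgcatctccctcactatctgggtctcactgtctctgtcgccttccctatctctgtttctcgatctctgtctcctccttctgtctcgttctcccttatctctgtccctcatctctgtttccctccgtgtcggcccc
The Grin2c region holds 3 matches on the gene's strand, starting 50, 40 and 35 bases before the start, of which the last 2 share a base, and the Grin2d region holds none. Of 32851 such regions in the table, 32.7% hold at least 1 match. The G and C content is 68.8% for Grin2c and 54.4% for Grin2d, against a median of 52.4% over all regions. These matches are a description of the letters only.

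Grin2c had signals of 8.50 on ethanol 2 and 8.54 on ethanol 4, against 8.78 on control 1 and 8.89 on control 3. The ethanol pools differed from each other by 0.04 and lay 0.24 below the nearer control pool. The difference was -0.31 (standard error 0.09, adjusted p = 0.183), or 0.804-fold. After quantile normalization the signals were 8.57 and 8.60 on the ethanol arrays and 8.68 and 8.85 on the control arrays. These still did not overlap, yet the difference of -0.18 (standard error 0.10, adjusted p = 0.464) was no longer past the limits. The call as deposited was lost without ethanol 2 (-0.29), without ethanol 4 (-0.33) and without control 3 (-0.26). Over ethanol 2 and control 3 alone Grin2c differed by -0.39.

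Grin2c is known to be expressed in cerebellar granule cells, for which 7 markers were examined. Of these, 6 had differences below 0 in both forms, where 80.2% and 51% of all probe sets did, and 1 was above. That 1 was Gabra6, a GABA-A receptor subunit restricted largely to these cells, at 10.66 and 10.29 on the ethanol arrays against 9.92 and 10.01 on the control arrays (0.51, and 0.58 after quantile normalization). Fat2, a cadherin of these cells, was lower, at 8.78 and 8.80 on the ethanol arrays against 9.32 and 9.11 on the control arrays (-0.43, and -0.31 after normalization). Both were past the limits in both forms, against 20.1% of all probe sets as deposited and 11.6% after normalization. The other 5, all below 0, were past the limits in neither form. Gabra6 lost its call as deposited without control 1 (0.46) or ethanol 2 (0.33), and after normalization without control 1 (0.52). Fat2 lost its call as deposited without control 1 (-0.32) or ethanol 2 (-0.42), and after normalization without control 1 (-0.23), ethanol 2 (-0.30) or ethanol 4 (-0.31). The median of the 7 was -0.15 as deposited and -0.12 after normalization. The summed linear signal of the 7 markers was 11380 and 10586 on the ethanol arrays and 12053 and 11345 on the control arrays, so the groups overlapped. The part of granule cell content in the Grin2c result was not tested.

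Grin2d had the lowest difference of the 6 subunits in both forms. Its signals were 6.58 on ethanol 2 and 6.61 on ethanol 4, against 7.25 on control 1 and 7.01 on control 3. The ethanol pools were only 0.03 apart, the control pools 0.24 apart, and the groups were separated by 0.40. The difference was -0.53 (standard error 0.11, adjusted p = 0.171), which is 0.691-fold and below the value of all but 5.51% of the probe sets. After quantile normalization the signals were 6.70 and 6.69 on the ethanol arrays and 7.10 and 6.96 on the control arrays, with a difference of -0.33 (standard error 0.09, adjusted p = 0.302). Probe sets with a mean signal of 6 to 7 had a median difference of -0.19 as deposited and 0.01 after normalization. As deposited, Grin2d was past the limits whichever array was left out, at -0.41 to -0.65. After normalization it was so only without control 3 (-0.41), and not without control 1 (-0.26), ethanol 2 (-0.34) or ethanol 4 (-0.33). Over ethanol 2 and control 3 alone the difference was -0.43.

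Markers of regions for which Grin2d is known were examined beside it. None of 5 thalamic markers was past the limits in either form, and their medians were -0.19 as deposited and -0.01 after quantile normalization. Of 6 brainstem and motor neuron markers, Chat and Isl1 were lower and past the limits as deposited (-0.38 and -0.38), where 17.9% of all probe sets were. After normalization neither was (-0.19 and -0.20), and the choline transporter Slc5a7 was past them and higher (0.36), where 5.71% of all probe sets were. Chat lost its call without control 1 (-0.29) or ethanol 2 (-0.32), Isl1 without ethanol 2 (-0.37), control 3 (-0.25) or ethanol 4 (-0.38), and Slc5a7 without control 1 (0.25), ethanol 2 (0.41) or ethanol 4 (0.31). The summed linear signal of the 6 was 294 and 310 on the ethanol arrays and 344 and 332 on the control arrays, so the ethanol arrays were lower without overlap. That of the thalamic markers was 2163 and 2347 on the ethanol arrays and 2441 and 2282 on the control arrays, with overlap. The part of these regions in the Grin2d result was not tested.

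Grin3a encodes GluN3A, a subunit that is abundant in early postnatal life and lowers the calcium that NMDA receptors admit. It was the only subunit with a higher signal on the ethanol arrays. The signals were 8.58 on ethanol 2 and 8.48 on ethanol 4, against 8.30 on control 1 and 8.40 on control 3. The groups did not overlap, with a gap of 0.08 between the nearest pools that is smaller than the distance between the ethanol pools (0.10) or the control pools (0.09). As deposited the difference was 0.18 (95% interval -0.07 to 0.43, adjusted p = 0.311) and short of the limits. Of all probe sets, 93.6% had a lower value as deposited and 93.0% did after quantile normalization. After quantile normalization the signals were 8.65 and 8.54 on the ethanol arrays and 8.20 and 8.36 on the control arrays, and the gap between the groups widened to 0.18. The difference was then 0.31 (standard error 0.10, adjusted p = 0.336), or 1.24-fold, and past the limits. The call after normalization was lost without control 1 (0.24), without ethanol 2 (0.25) and without ethanol 4 (0.37). Over ethanol 2 and control 3 alone Grin3a differed by 0.18 as deposited and by 0.29 after normalization.

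Grin3b encodes GluN3B, known from motor neurons. Its signals were 4.94 on ethanol 2 and 4.95 on ethanol 4, against 5.48 on control 1 and 5.19 on control 3. The groups did not overlap, and the control pools were 0.30 apart. The difference was -0.39 (standard error 0.13, adjusted p = 0.201) as deposited and -0.24 (standard error 0.11, adjusted p = 0.414) after quantile normalization, past the limits in the first form only. That call was lost without control 1 (-0.24), ethanol 2 (-0.39) or ethanol 4 (-0.39). The signal itself was as low as that of genes not expected in brain. Of 210 probe sets for vomeronasal and taste receptors, 23.3% and 11.0% were below Grin3b on the ethanol arrays and 48.6% and 22.4% on the control arrays. These 210 probe sets were themselves lower on the ethanol arrays, with a median of -0.21 as deposited and 93.3% below 0, and with a median of -0.04 after normalization. The Grin3b probe set therefore did not stand above this silent background on any array, whereas the probe sets of Grin2a, Grin2b, Grin2c and Grin3a were above all 210 on every array. That of Grin2d was above all 210 on 3 arrays and above 98.6% of them on ethanol 4.

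**Figure D2:**
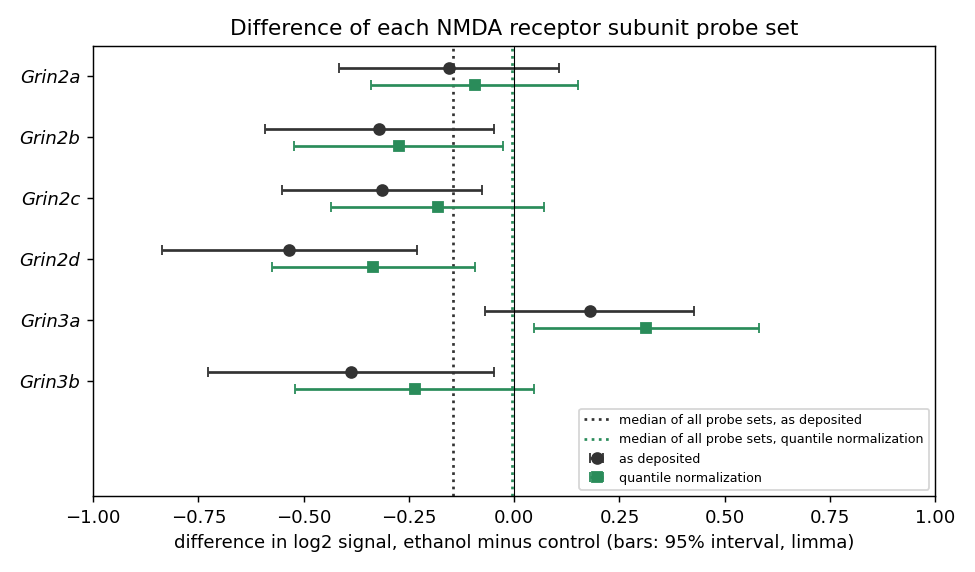
Difference in log2 signal (ethanol minus control, 2 pools per group) of each subunit, as deposited (circles) and after quantile normalization (squares), with 95% intervals from limma. Dotted lines mark the median of all probe sets in each form. Grin2d lies farthest to the left, at -0.53 and -0.33, and Grin3a is the only subunit to the right of 0, at 0.18 and 0.31.

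As deposited, the ethanol pools were below the control pools without overlap for 5 of the 6 subunits and above them for Grin3a, where 52.7% and 7.25% of all probe sets were so arranged (60% in either direction). After quantile normalization 4 subunits were below without overlap (24.9% of all probe sets), Grin3a was above (24% of all probe sets) and Grin2a overlapped, against 48.9% of all probe sets without overlap in either direction. Relative to the median of all probe sets, the difference of Grin2d was -0.39 as deposited and -0.33 after normalization, and that of Grin3a was 0.33 and 0.32. Grin2b was at -0.17 and -0.27 on this relative scale, Grin2c at -0.17 and -0.18, Grin3b at -0.24 and -0.23, and Grin2a at -0.01 and -0.09.

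**Figure D3:**
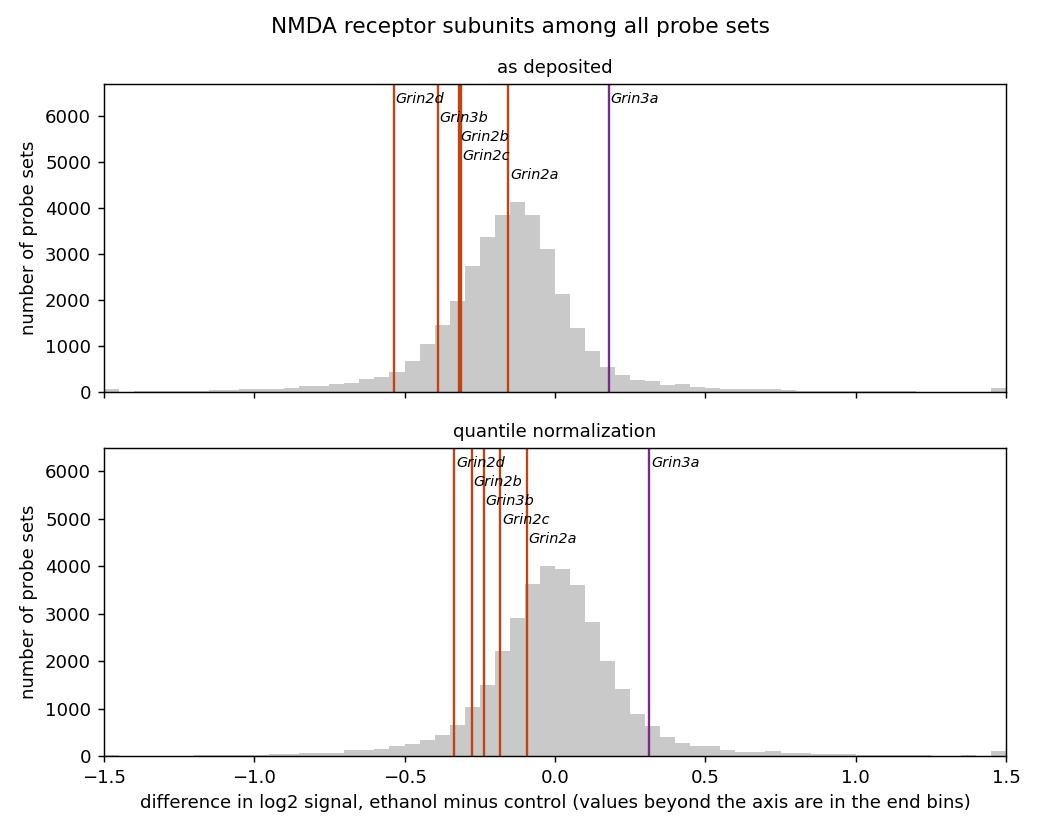
Number of probe sets by difference in log2 signal (ethanol minus control) over all 35556 probe sets, in bins of equal width, as deposited (top) and after quantile normalization (bottom). Lines mark the 6 subunits. As deposited most of the distribution lies to the left of 0, with a median of -0.146, and Grin3a lies in its right flank in both panels while Grin2d lies in its left flank.

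A difference between subunits on the same array does not move with a shift shared by all probe sets of that array, and shows only whether they changed unequally. It can move with a shift that varies with signal. As deposited, the median difference was -0.11 at a mean signal of 10 to 11 and -0.19 at 6 to 7. Grin2a minus Grin2b addresses the balance of the main forebrain GluN2 subunits, which is known to shift towards GluN2A as the brain matures. It was -0.27 on ethanol 2 and -0.28 on ethanol 4, against -0.46 on control 1 and -0.43 on control 3. The groups did not overlap, and Grin2a gained 0.17 on Grin2b in ethanol-exposed brains (0.18 after quantile normalization). The exact permutation test over the 4 arrays gave p = 0.333, two-sided, which is the smallest that 2 against 2 pools can give. Leaving out each array in turn gave 0.15 to 0.18.

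Grin3a minus Grin2b was -2.21 on both ethanol arrays, against -2.83 on control 1 and -2.59 on control 3, so that Grin3a gained 0.50 on Grin2b (0.59 after quantile normalization). Grin3a likewise gained on each of the other subunits without overlap of the groups, by 0.33 on Grin2a, by 0.49 on Grin2c, by 0.71 on Grin2d and by 0.57 on the dim Grin3b. After normalization these gains were 0.41, 0.50, 0.65 and 0.55. Each of these had the smallest exact p that the design allows (0.333), and they share the 4 values of Grin3a. As deposited Grin3a was higher and every other subunit lower, without overlap, so these balances could not overlap. They are therefore no further evidence beyond the levels. Grin2d lost 0.21 on Grin2b without overlap as deposited, but only 0.06 with overlap after normalization. Grin2c and Grin3b overlapped in their balance with Grin2b in both forms, at 0.01 and -0.07 as deposited. Grouped by the treatment entry, Grin3a differed by 0.005 as deposited. That is less than Grin2a (0.12), Grin2b (0.13), Grin2d (0.11) and Grin3b (0.15), so Grin3a then gained only on Grin2c (-0.07). Balances with Grin2b other than that of Grin2a were chosen after the data were seen, in place of balances with Grin1. Those of Grin3a with the other subunits were not planned either.

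**Figure D4:**
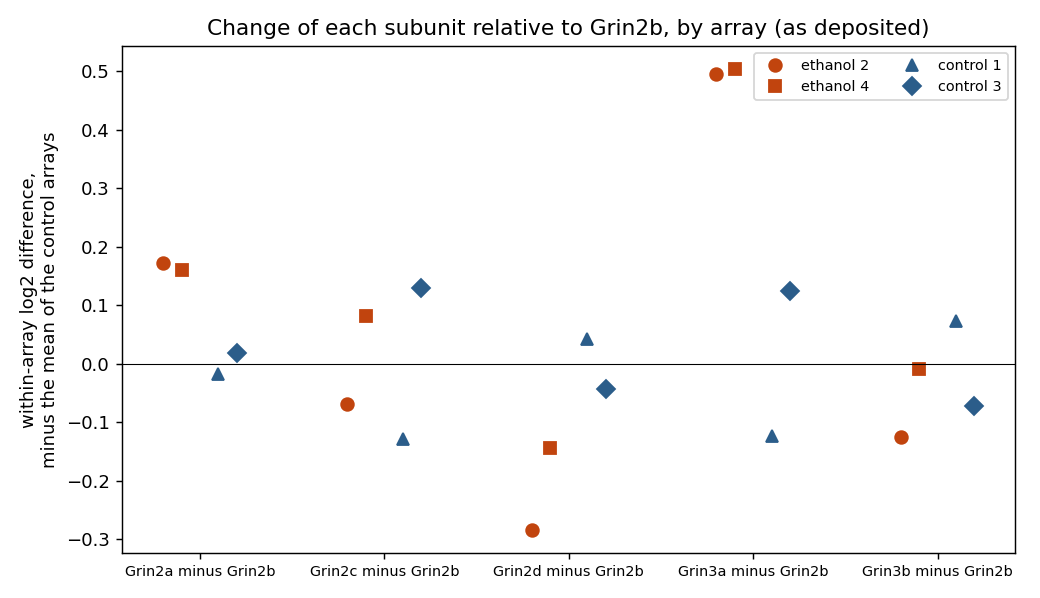
Within-array log2 difference of each subunit from Grin2b as deposited, set to 0 at the mean of the control arrays. Each point is 1 array, with ethanol left of control. Grin2a and Grin3a lie above the control arrays on both ethanol arrays, Grin2d lies below them, and Grin2c and Grin3b overlap.

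Profiles over the 4 arrays were compared by the root mean square distance between log2 values after quantile normalization, each minus its own mean. Among the subunits, Grin2b and Grin3b were nearest (0.044), followed by Grin2b and Grin2d (0.048), and Grin2d and Grin3a were farthest apart (0.344). Of 13291 other probe sets that name 1 gene with a mean signal of 6 or more, the nearest was Anpep for Grin2a (distance 0.0058), Gdpgp1 for Grin2b (0.0056), Ddc for Grin2c (0.0047), Pcdh7 for Grin2d (0.0091), Zfhx4 for Grin3a (0.0119) and Rps28 for Grin3b (0.0043). With only 4 arrays many profiles are alike: between 138 and 808 probe sets lay within 0.05 of a subunit.

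Genes that act with NMDA receptors were examined in 7 lists of 91 genes, of which 84 have a probe set naming them alone. As deposited, 10 of the 84 were past the limits and lower (11.9%) and 1 was higher (1.19%), against 17.9% and 2.23% of all probe sets. After quantile normalization 4 were lower (4.76%) and 2 were higher (2.38%), against 5.87% and 5.71% of all probe sets. These shares vary with signal. Among probe sets with a mean signal of 10 to 11, 10.2% were lower and 4.10% higher as deposited, and 4.25% and 5.47% after normalization. At 8 to 9 the shares were 21.4% and 3.69%, then 7.71% and 6.67%. The 84 were not compared at like signal. The median of the 84 was -0.13 as deposited and -0.06 after normalization, but 0.08 with arrays centred on their medians, where that of all probe sets was 0.07. With such centring 1 of the 84 was lower and 7 were higher. None passed an adjusted p of 0.05 in limma, and 12 and 7 passed an unadjusted p of 0.05 in the 2 forms.

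**Figure D5:**
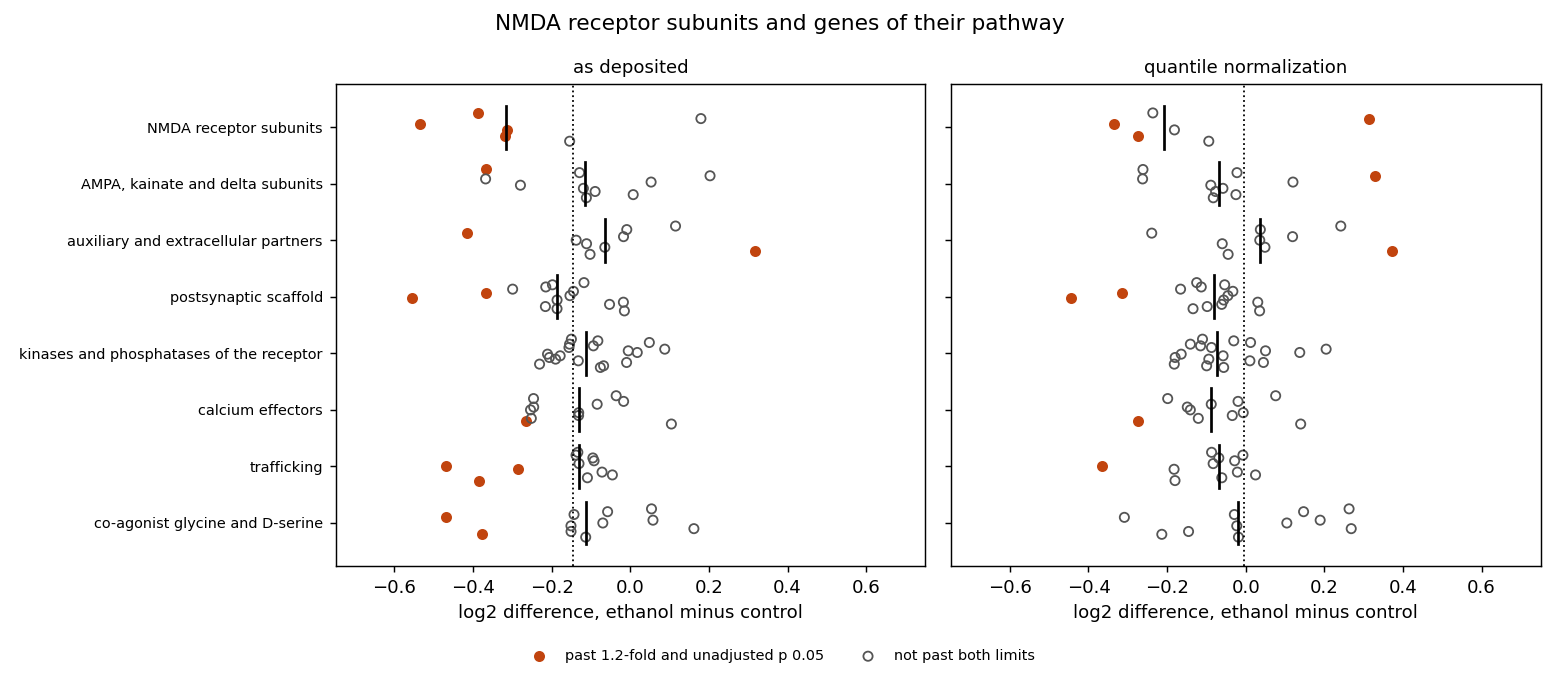
Log2 difference (ethanol minus control) of each gene in the NMDA receptor subunits and in 7 lists of genes that act with them, as deposited (left) and after quantile normalization (right). Filled points are past 1.2-fold and an unadjusted p of 0.05, open points are not, vertical bars are list medians and the dotted line is the median of all probe sets. As deposited, filled points lie below 0 apart from Neto2, and after normalization 6 of 84 pathway genes are filled.

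Of the 10 AMPA, kainate and delta receptor subunits measured, only Grid1, a delta subunit that organizes synapses, was past the limits as deposited, and it was lower, at 9.54 and 9.54 on the ethanol arrays against 9.94 and 9.88 on the control arrays (-0.37, and -0.26 after quantile normalization, just short of the limits). Grid1 is named because it makes up that count. The kainate receptor subunit Grik4 was the highest of the list, at 8.78 and 8.83 on the ethanol arrays against 8.65 and 8.55 on the control arrays. It differed by 0.20 as deposited, short of the limits, and by 0.33 after normalization, past them, though not without control 3 (0.31) or ethanol 4 (0.31). The lowest value was that of another kainate subunit, Grik3, at -0.37, which was not past the limits. The medians of the 10 were -0.12 as deposited and -0.07 after normalization (0.10 with centred arrays), compared with -0.32 and -0.21 (-0.11) for the NMDA receptor subunits. No test of that difference was made.

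Among the auxiliary and extracellular partners, Neto2, an auxiliary subunit of kainate receptors, was past the limits and higher in both forms. Its signals were 11.03 and 10.91 on the ethanol arrays against 10.57 and 10.74 on the control arrays, and it differed by 0.32 (adjusted p = 0.206) and by 0.37 after quantile normalization (adjusted p = 0.326). The call as deposited was lost without control 1 (0.23), ethanol 2 (0.25) or ethanol 4 (0.38), and that after normalization without control 1 (0.26) or ethanol 2 (0.31). Lrfn2, an adhesion protein that binds NMDA receptors, was lower as deposited (-0.41) and short of the limits after normalization (-0.24). The other 7 of the 9 measured genes of this list were past the limits in neither form.

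The postsynaptic scaffold ties NMDA receptors to the cytoskeleton and to signalling enzymes. All 14 measured members had differences below 0 as deposited and 12 did after quantile normalization, where 80.2% and 51% of all probe sets did. With centred arrays the list median was 0.03, where that of all probe sets was 0.07. Of the 14, only Dlgap3 and Shank1 were past the limits and lower, in both forms, against 17.9% of all probe sets as deposited and 5.87% after normalization. Dlgap3, which links PSD-95 to Shank proteins, was at 9.14 and 9.14 on the ethanol arrays against 9.75 and 9.64 on the control arrays, a difference of -0.55 (adjusted p = 0.156) and of -0.44 after normalization (adjusted p = 0.213). It was past the limits whichever array was left out, in both forms. With centred arrays Dlgap3 was also past them (-0.34), but by the treatment entry it was at 0.05. Shank1, a scaffold of the deeper postsynaptic density, was at 10.44 and 10.39 on the ethanol arrays against 10.84 and 10.72 on the control arrays (-0.37, and -0.31 after normalization), and lost its call as deposited without control 1 (-0.31) or ethanol 4 (-0.34), and after normalization likewise (-0.28 and -0.28). With centred arrays Shank1 was not past the limits (-0.16), and by the treatment entry it was at 0.09. Dlg1 had the highest value of the list, at -0.02.

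None of the 18 measured kinases, phosphatases and linked proteins of the receptor was past the limits in either form. Their values ran from Camk2g, a subunit of the calcium/calmodulin kinase, at -0.23 to the death-associated kinase Dapk1 at 0.09. Of 11 calcium effectors, Calm3, which encodes calmodulin, was lower on the ethanol arrays, at 11.77 and 11.82 against 12.03 and 12.09 on the control arrays (-0.27 in both forms). That call as deposited was lost when any single array was left out (-0.24 to -0.29), and after normalization without ethanol 2 (-0.22), control 3 (-0.23) or ethanol 4 (-0.32). Calm2, another calmodulin gene, was the highest of that list at 0.10 and not past the limits.

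Of 11 trafficking genes, as deposited Apba2, Kif17 and Apba1 were lower and past the limits, and only Apba2 was so after quantile normalization, where 17.9% and 5.87% of all probe sets were. Kif17 is the kinesin known to carry GluN2B-containing vesicles in dendrites, and Apba1 and Apba2 are Mint adaptors. Apba2 was at 9.47 and 9.53 on the ethanol arrays against 10.01 and 9.92 on the control arrays (-0.47, adjusted p = 0.166, and -0.37 after normalization, adjusted p = 0.258), and it was past the limits whichever array was left out, in both forms. With centred arrays Apba2 was not past the limits (-0.26), and by the treatment entry it was at 0.01. Kif17 was at -0.38 and Apba1 at -0.29 as deposited, and both were at -0.18 after normalization. Kif17 lost its call without control 1 (-0.39), ethanol 2 (-0.26) or control 3 (-0.38), and Apba1 lost it without any one array (-0.27 to -0.30). They are named because they complete the count of 3. The highest of this list was Lin7b, at -0.05.

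Of 11 genes that set the co-agonists glycine and D-serine, Shmt2, the mitochondrial enzyme that interconverts serine and glycine, and Dao, which degrades D-serine, were lower and past the limits as deposited, at -0.47 and -0.38, where 17.9% of all probe sets were. Neither was past them after quantile normalization (-0.31 and -0.21), and the call of Shmt2 as deposited was also lost without control 1 (-0.29), ethanol 2 (-0.54) or ethanol 4 (-0.39). Dao lost its call without control 1 (-0.26), ethanol 2 (-0.33) or ethanol 4 (-0.42). Dao is named because it completes the count of 2. Slc7a10, a transporter of D-serine, had the highest value at 0.16 and was not past the limits.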

How the data were processed

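The authors hybridized whole-brain RNA to Mouse Gene 1.0 ST arrays and used Partek Genomics Suite (6.6 in the submitters' notes, another version in the methods) for GC-adjusted RMA with quantile normalization. The deposited values are log2 signals per probe set, with none missing, and precision is limited by there being 4 arrays. The annotation names no genome build. Of the probe sets, 21797 name 1 gene, and each of the 6 subunit probe sets matched its gene by Entrez ID. Each probe set was fitted with limma 3.58.1 in R 4.3.3 (2 residual and 2.57 prior degrees of freedom), with Benjamini-Hochberg adjustment over all 35556 probe sets and no filter on dim signals. The procedure was tested on simulated data. Pools had no stated pairing and no stated batch, and p-values measure only the spread between pools.

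Subunits and lists were chosen with earlier results of these data known. Of the 7 pathway lists, the genes with the highest and lowest difference as deposited and those past the limits in the same direction in both forms are named, with the nearest profile of each subunit. A gene with several probe sets is represented by that with the highest mean. Balances with Grin1 were planned and not run. Further marker lists, of forebrain projection neurons, astrocytes, oligodendrocytes, microglia, endothelial cells and choroid plexus, are described in the closing section. Alternatives were the 2 normalizations, the treatment entry, dropping probe sets with a mean log2 under 5, limma's intensity trend, the methods' test, a 1.5-fold limit, both replicate blocks and each array left out.
Start regions were found in the RefSeq table for 4 of the 7 genes.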

Additional observations from a re-analysis of the deposited data

How the results depend on the processing

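Grouping by the treatment entry turned the direction of Grin2a to 0.12, Grin2b to 0.13, Grin2d to 0.11 and Grin3b to 0.15. With this grouping after quantile normalization they were at 0.11, 0.11, 0.0779 and 0.14, and Grin3a was at -0.0236. Centring on array medians turned Grin2a to 0.0573. The cause of these changes was not tested. Grin2c kept its direction under every alternative run. The pathway genes past the limits in both forms were not past them by the treatment entry. Neto2 was then at -0.02, Dlgap3 at 0.05, Shank1 at 0.09, Calm3 at -0.05 and Apba2 at 0.01. With centred arrays only Neto2 (0.53) and Dlgap3 (-0.34) of these genes were past the limits.

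The 4 subunits past the limits as deposited became 2 with centred arrays, 2 with the methods' test, 0 at 1.5-fold, 0 by the treatment entry in either form, and 1 to 3 with an array left out (0 to 3 after normalization). Probe sets past the limits numbered 7163 as deposited, 4116 after quantile normalization, 4623 with centred arrays, 3154 with the methods' test, 1694 at 1.5-fold, 570 by the treatment entry (982 after normalization), and 4360 to 7314 with an array left out (3407 without control 1, 3652 without ethanol 2, 4319 without control 3 and 3258 without ethanol 4 after normalization). The subunit median of -0.32 was -0.21 after quantile normalization, -0.11 with centred arrays, 0.11 by the treatment entry (0.0934 after normalization), -0.21 over ethanol 2 and control 3 alone, and -0.24 to -0.33 with an array left out (after normalization -0.171 without control 1, -0.220 without ethanol 2, -0.238 without control 3 and -0.200 without ethanol 4). The gain of Grin2a on Grin2b, 0.17, was -0.0131 by the treatment entry.

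No label pairs the pools. The deviations of control 1 from its group mean correlated with those of ethanol 2 at 0.0716. The value for ethanol 4 is -0.0716 by construction, as the 2 pools of a group deviate by equal and opposite amounts. With a replicate block of control 1 with ethanol 2, 4 subunits were past the limits, and with the block of control 1 with ethanol 4, 3 were, without Grin2b. After quantile normalization each replicate block left 2 subunits past the limits, with 4761 and 3894 probe sets: that with ethanol 2 ended the call of Grin3a and that with ethanol 4 the call of Grin2b. In this balanced design a block cannot move a difference, so the median is -0.21 by construction. A mean over a gene's probe sets gave no other value, as each subunit has 1. With 1 pool left in a group, that pool was assumed to vary like the other group. With 2 pools per group, few arrays limit every value, and Grin3b lay within the range of genes silent in brain.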

Other observations

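Of 7 neuronal markers none was past the limits, with medians of -0.11 as deposited and -0.05 after quantile normalization, and likewise none of 6 forebrain projection neuron markers (-0.19 and -0.02), of 6 astrocyte markers (0.00 and 0.07) or of 6 microglial markers (-0.06 and 0.07). Among 5 oligodendrocyte markers Cnp was past the limits and lower in both forms (-0.29 and -0.29). Its call was lost without control 1 (-0.22 as deposited and -0.24 after normalization), ethanol 2 (-0.31 and -0.28) or ethanol 4 (-0.26 and -0.28). As deposited, Pecam1 of 4 endothelial markers (-0.37) and Kl of 6 choroid plexus markers (-0.42) were lower, and neither was past the limits after normalization. Pecam1 lost its call without ethanol 2 (-0.25) or control 3 (-0.28), and Kl without ethanol 2 (-0.37) or control 3 (-0.32). All 7 pituitary markers were below 0 as deposited and 6 were after normalization, where 80.2% and 51% of all probe sets were. Gh (-2.82 and -2.74) and Prl (-2.33 and -2.23) were low on ethanol 2 only and not past the limits. Only Pomc was past them, lower in both forms (-0.53 and -0.35), at a dim signal of at most 6.09 on any array. So were 17.9% and 5.87% of all probe sets. The call of Pomc after normalization was lost without ethanol 2 (-0.38), control 3 (-0.23) or ethanol 4 (-0.33). Their part in the subunit results was not tested. Cnp, Pecam1, Kl and Pomc are named because they make up those counts.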
